A study of Mus musculus with 27 samples.

Results

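The late opposite cortex is the cortex of the hemisphere across from a transient stroke, sampled 12 or 24 h into recovery. All 6 contralateral libraries with a labelled recovery of 12 h (3 libraries) or 24 h (3 libraries) were set against the 3 sham libraries, so that 9 of the 27 libraries of the series were compared. All of the mice were wild-type C57BL6, an inbred strain, 7 to 8 weeks old. In the stroke groups a suture blocked the right middle cerebral artery, with the common carotid artery tied, for 35 min, and only mice whose measured blood flow fell and then recovered were kept. Sham mice were anaesthetised and had their arteries exposed with no suture inserted, and their tissue is labelled only as cortex, with no side given. The 12 h libraries are called contra_12h and the 24 h libraries contra_24h. The series' design text ties each replicate number to its own day of surgery. The labels do not say whether a contralateral library and its ipsilateral partner came from 1 animal.

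MicroRNAs (miRNAs) are short RNAs that guide Argonaute proteins to messenger RNAs, mostly by pairing of their seed, bases 2 to 8 counted from the 5′ end, and lower the output of those messages. Cortical tissue is rich in neuronal miRNAs such as miR-124, miR-128 and miR-9, while miR-146 family members are induced by inflammatory signalling through NF-κB. The miR-200 and miR-183 families are best known from epithelia and from sensory organs, olfactory epithelium and retina among them. The opposite hemisphere is commonly used as the internal control of a unilateral stroke, and its comparison with sham asks whether that cortex differs from sham cortex. The sham libraries have no labelled recovery time. A remote effect of the stroke, the suture surgery and the time since surgery therefore cannot be told apart here.

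The sequences that carry the comparison are those of the miR-183 and miR-200 clusters, one of which holds the single called entry, and of the miR-146 pair, which holds the abundant entry with the largest higher value. They are RefSeq mature sequences (GRCm38.p6), 5′ to 3′, with the seed in capitals. Of the 1842 entries in the count table, 1587 matched a RefSeq name.
miR-141-3p: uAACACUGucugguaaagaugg
miR-200a-3p: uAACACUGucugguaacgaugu
miR-200b-3p: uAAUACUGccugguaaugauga
miR-429-3p: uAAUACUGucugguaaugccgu
miR-182-5p: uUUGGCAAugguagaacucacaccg
miR-183-5p: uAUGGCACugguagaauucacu
miR-146b-5p: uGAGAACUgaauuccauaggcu
miR-146a-5p: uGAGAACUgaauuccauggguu
miR-141-3p shares its seed with miR-200a-3p, and miR-200b-3p shares another with miR-429-3p. Counted from the 5′ end, miR-141-3p and miR-200a-3p differ at 2 of 22 positions (A17C and G22U), and miR-146b-5p and miR-146a-5p also at 2 of 22 (A18G and C21U). How reads that match several entries were counted is not given, so such near-identical pairs could share reads. In GRCm38, Mir141 lies at chr6:124717914-124717985 on the minus strand, in an exon of the transcript Gm29008 and an intron of Gm15884, and its mature sequence and that of miR-200c-3p span 430 bp. The mature sequences of Mir200b, Mir200a and Mir429 span 1791 bp of chromosome 4 within introns of Ttll10, Mir429 also within an exon of the noncoding Gm13648. Those of Mir183, Mir96 and Mir182 span 3771 bp of chromosome 6 outside other annotated genes. Mir146b lies at chr19:46342762-46342870 on the plus strand in an intron of Mfsd13a, and Mir146 (miR-146a) at chr11:43374397-43374461 on the minus strand outside other annotated genes.

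Total counts of the 9 libraries ranged from 866376 to 1435081, with 1738 to 1827 of the 1842 entries detected in each. Levels are CPM, counts scaled to a fixed library total after correction by a TMM factor, which allows for differences in composition. A total of 1470 entries passed the filter on low counts. Of these, 265 averaged at least 100 CPM over the 9 libraries, and are called abundant here. Sham replicate 2 stood apart from the other 8 libraries in the miR-183 and miR-200 clusters, so those results are given with and without it. It also lay outside the other 8 in some abundant entries elsewhere. It had 91.7 CPM of miR-6927-3p, against at least 209 CPM in the others, and 327 CPM of miR-7081-5p, against at least 742 CPM. Neuronal entries were abundant in both groups. miR-128-3p was at 86725 ± 24136 CPM in late contralateral cortex (SD, n = 6) and 90425 ± 25802 CPM in sham (SD, n = 3). The 10 most abundant entries, led by miR-181a-5p, miR-128-3p, miR-127-3p, miR-26a-5p and let-7f-5p, took 57.1% ± 0.71 of the counts in late contralateral cortex and 56.2% ± 1.22 in sham. The difference of 0.88 percentage points did not pass an exact permutation test over 84 splits (two-sided, p = 0.19). With labels permuted within each day of surgery the exact p was 0.074 over 27 splits, and the share was higher in late contralateral cortex in 5 of 6 same-day pairs.

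The comparison of late contralateral cortex with sham called 1 entry of 1470 (0.068%), miR-141-3p, which was lower in the late contralateral libraries. No entry was called as higher. Calls rest on the quasi-likelihood F test of edgeR with Benjamini-Hochberg adjustment at 0.05. At an unadjusted p under 0.05 there were 48 entries (3.27%), 9 higher (0.612%) and 39 lower (2.65%). With library totals in place of TMM there were 54, 1 higher and 53 lower. With the day of surgery as a replicate block in the model, edgeR called 0 of 1470 entries (0%) and 76 (5.17%) had an unadjusted p under 0.05, 30 higher (2.04%) and 46 lower (3.13%). DESeq2 called 0 and found 39 at an unadjusted p under 0.05, and gave no adjusted p for 3 entries, miR-141-3p among them.

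**Figure D1:**
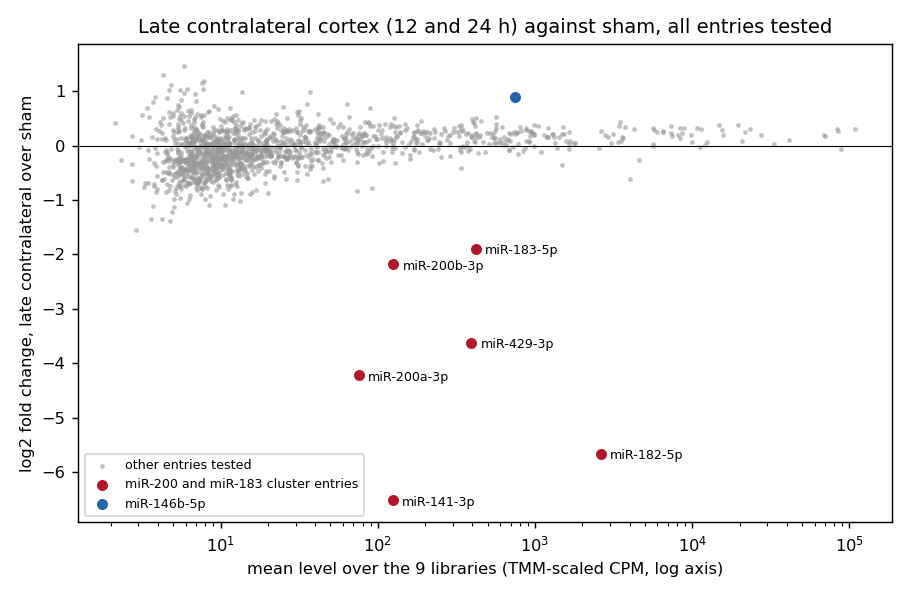
Log2 fold change of late contralateral cortex (6 libraries) over sham (3 libraries) on the vertical axis against mean TMM-scaled CPM over the 9 libraries on a log axis, for the 1470 entries tested. Red points are the 6 tested entries of the miR-183 and miR-200 clusters, all below 0, the blue point is miR-146b-5p at 0.88, and grey points are the other entries.

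miR-141-3p, a member of the miR-200 family, had 2.14, 2.85 and 5.47 CPM in the contra_12h libraries, 5.66, 4.21 and 3.50 CPM in the contra_24h libraries, and 8.92, 1074 and 18.2 CPM in the sham libraries. All 6 late contralateral values lay below all 3 sham values, and sham replicate 2 was far above the other 8 libraries. The raw counts were 2, 3, 4, 6, 5 and 3 in late contralateral cortex, against 11, 1229 and 18 in sham. As CPM of the library total, the 95% Wilson interval was 0.598 to 7.96 for the 2 counts of contra_12h replicate 1, and 855 to 956 for sham replicate 2. These intervals cover counting error only.

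The log2 fold change of miR-141-3p was -6.52 ± 1.13 (SE, edgeR, adjusted p = 0.0063), with a 95% interval of -8.88 to -4.24. With the replicate block it was -6.37 ± 1.50 with an adjusted p of 0.34. Without sham replicate 2 it was -1.75 ± 1.07 with an adjusted p of 0.99, so the size of the difference moved with that 1 library. A further fit also left out ipsi_6h replicate 3, a library outside the comparison with 405 CPM of miR-141-3p. The log2 fold change was then -1.74 ± 0.53 (SE, edgeR, unadjusted p = 0.0027, adjusted p = 0.99). miR-141-3p was lower in all 6 same-day pairs of a late contralateral and a sham library, as were 72 of 1470 entries (4.9%).

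The values of miR-141-3p in the other libraries of the series are given as a description, since its late values drew attention to it. The 6 late contralateral libraries held 23 counts in all, at 2.14 to 5.66 CPM. The 6 early contralateral libraries (3 and 6 h) held 92 counts at 7.68 to 15.5 CPM, and the 6 late ipsilateral libraries held 72 counts at 6.14 to 17.1 CPM. The early ipsilateral libraries spread from 2.16 to 405 CPM, with the lowest, ipsi_3h replicate 3 at 2 counts, inside the late contralateral range. No early contralateral library reached down to that range. Yet late against early contralateral cortex did not pass the test, at -1.53 ± 1.07 on the log2 scale (SE, edgeR, unadjusted p = 0.157, adjusted p = 0.999). Fitted on the 12 contralateral libraries alone it was -1.55 ± 0.316 (SE, edgeR, unadjusted p = 0.00012, adjusted p = 0.14). Over all libraries but sham replicate 2 and ipsi_6h replicate 3, neither of them in this comparison, it was -1.54 ± 0.41 (SE, edgeR, unadjusted p = 0.0008, adjusted p = 0.61). That last fit was added after the data were seen. The entry was picked by these same late values, so these unadjusted p-values are part of the description and no independent support.

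The other tested members of these clusters followed sham replicate 2. miR-182-5p had 303, 119.8 and 126 CPM in the contra_12h libraries, 86.8, 179 and 98.1 CPM in the contra_24h libraries, and 143, 22414 and 87.9 CPM in the sham libraries. The late contralateral values overlapped sham replicates 1 and 3, and only sham replicate 2 was high, with 25654 counts of miR-182-5p. Its log2 fold change was -5.66 ± 1.35 (SE, edgeR, adjusted p = 0.19).

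miR-429-3p ranged from 37.0 to 158 CPM in late contralateral cortex, against 57.5, 2884 and 82.8 CPM in sham. miR-183-5p ranged from 201 to 286 CPM in late contralateral cortex, against 195, 2093 and 186 CPM in sham. miR-200a-3p and miR-200b-3p had the same form, with 586 and 670.1 CPM in sham replicate 2. The 6 tested entries of this epithelial and sensory list had a median log2 fold change of -3.92, against -0.05 over all 1470 entries, and 1 of the 6 was called. Their summed level was 437 to 668 CPM in late contralateral cortex (median 515), against 441, 479 and 29721 CPM in sham. Without sham replicate 2 the median of the list was 0.13, and miR-182-5p, miR-429-3p, miR-183-5p and miR-200b-3p had log2 fold changes of 0.37, 0.23, 0.23 and 0.024, while miR-200a-3p had -0.26 and miR-141-3p -1.75. miR-200c-3p and miR-96-5p did not pass the filter. miR-200c-3p had 11 counts in the 6 late contralateral libraries and 79 in the 3 sham libraries, and miR-96-5p had 21 in late contralateral cortex and 87 in sham. What set sham replicate 2 apart was not tested.

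**Figure D2:**
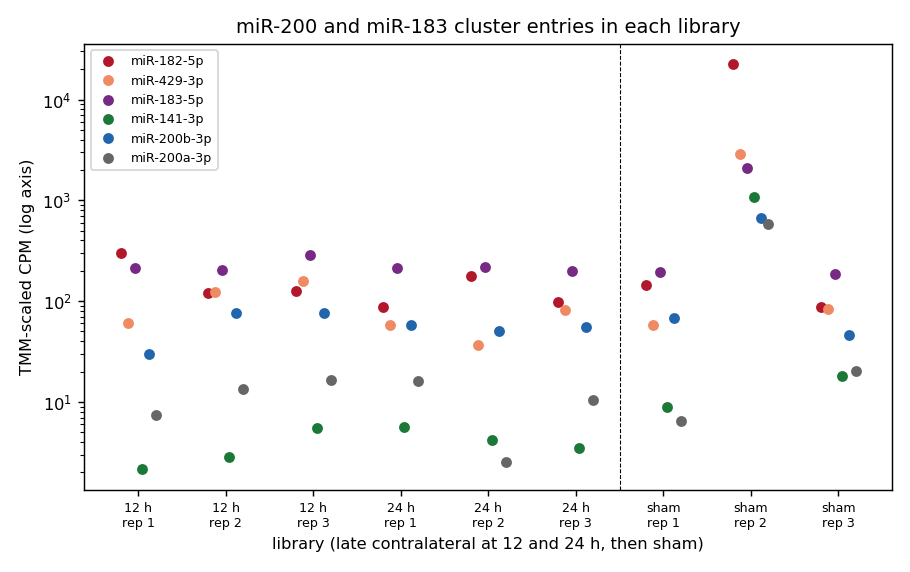
TMM-scaled CPM (log axis) of the 6 tested miR-183 and miR-200 cluster entries in each of the 9 libraries, with late contralateral libraries left of the dashed line and sham libraries right of it. Sham replicate 2 is high in all 6 entries, from 586 CPM of miR-200a-3p to 22414 CPM of miR-182-5p. miR-141-3p (green) is lower in every late contralateral library than in any sham library.

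miR-146b-5p, a miRNA induced by inflammatory signalling, had the largest higher log2 fold change among the abundant entries, but was not called. It had 538, 1015 and 1424 CPM in the contra_12h libraries, 767, 593 and 985 CPM in the contra_24h libraries, and 369.6, 540.0 and 521 CPM in the sham libraries. Only contra_12h replicate 1 fell within the sham range, below sham replicate 2 by a small margin. Within each day of surgery both late contralateral libraries exceeded the sham library of that day, in 6 of 6 pairs, as in 60 of 1470 entries (4.08%). The mean was 887 ± 328 CPM in late contralateral cortex (SD, n = 6) and 477 ± 93.4 CPM in sham (SD, n = 3). The log2 fold change was 0.88 ± 0.34 (SE, edgeR, 95% interval 0.18 to 1.59, unadjusted p = 0.0155, adjusted p = 0.998). With the replicate block it was 0.85 ± 0.22 (unadjusted p = 0.00077, adjusted p = 0.34).

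miR-146b-5p averaged 992 ± 443 CPM at 12 h and 781 ± 196 CPM at 24 h, and these did not differ beyond their spread (edgeR, unadjusted p = 0.37). Early contralateral cortex averaged 444 ± 133 CPM of miR-146b-5p at 3 h and 707 ± 116 CPM at 6 h (SD, n = 3 each). Late against early contralateral cortex gave a log2 fold change of 0.65 ± 0.27 (SE, edgeR, unadjusted p = 0.0225, adjusted p = 0.999). The occluded cortex averaged 855 ± 359 CPM at 12 h and 740.0 ± 306 CPM at 24 h, values beside those of the contralateral cortex.

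Its near-identical partner miR-146a-5p had 273, 576 and 592 CPM in the contra_12h libraries, 361, 306 and 527 CPM in the contra_24h libraries, and 172, 417 and 386 CPM in the sham libraries. The groups overlapped, and 5 of 6 same-day pairs were higher in late contralateral cortex. The log2 fold change of miR-146a-5p was 0.43 ± 0.40 (SE, edgeR, adjusted p = 0.998).

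Sets of libraries that do not overlap were few. All 6 late contralateral values lay above all 3 sham values in 10 of 1470 entries (0.68%) and below them in 18 (1.22%), 28 in all (1.9%). Of the 265 abundant entries 4 were higher in this sense (1.51%) and 1, miR-141-3p, was lower (0.377%), but miR-141-3p reaches a mean of 100 CPM only through sham replicate 2, and averaged 6.37 CPM over the other 8 libraries. The 4 higher entries were miR-128-1-5p, miR-744-5p, miR-485-5p and miR-6356, and none was called. RefSeq sequences were found for the first of these and for miR-744-5p, and they have different seeds.
miR-128-1-5p: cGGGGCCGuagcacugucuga
miR-744-5p: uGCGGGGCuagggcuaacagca
Mir128-1 lies at chr1:128202361-128202430 on the plus strand in an intron of R3hdm1, and Mir744 at chr11:65734733-65734832 on the minus strand in an intron of Map2k4 (GRCm38).

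miR-128-1-5p, the minor arm of a hairpin whose other arm is the neuronal miR-128-3p, had 547, 728 and 728 CPM in the contra_12h libraries, 623, 572 and 558 CPM in the contra_24h libraries, and 543, 438 and 326 CPM in the sham libraries. The closest values were contra_12h replicate 1 and sham replicate 1, both from the first day. Its log2 fold change was 0.52 ± 0.22 (SE, edgeR, unadjusted p = 0.0236, adjusted p = 0.998), while miR-128-3p, which a second hairpin also yields, had -0.06 ± 0.32. miR-744-5p had 3329, 3555 and 4826 CPM in the contra_12h libraries, 3548, 3449 and 3530.4 CPM in the contra_24h libraries, and 3291, 2886 and 2480.0 CPM in the sham libraries. One library, contra_12h replicate 3, was well above the other late ones, and the rest lay close together. Its log2 fold change was 0.36 ± 0.19 (SE, edgeR, adjusted p = 0.998).

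miR-485-5p, from the imprinted Dlk1-Dio3 region on chromosome 12, averaged 666 ± 53.9 CPM in late contralateral cortex and 523 ± 125 CPM in sham, 0.35 ± 0.21 on the log2 scale (SE, edgeR, adjusted p = 0.998). Sham replicate 3 was the lowest library, at 379.8 CPM. miR-6356 averaged 284 ± 41.7 CPM in late contralateral cortex and 225 ± 6.73 CPM in sham, a log2 fold change of 0.33 ± 0.22. Early contralateral cortex held 332 ± 92.7 CPM of miR-6356 at 3 h and 313 ± 12.9 CPM at 6 h, so its late values were not above its early ones.

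**Figure D3:**
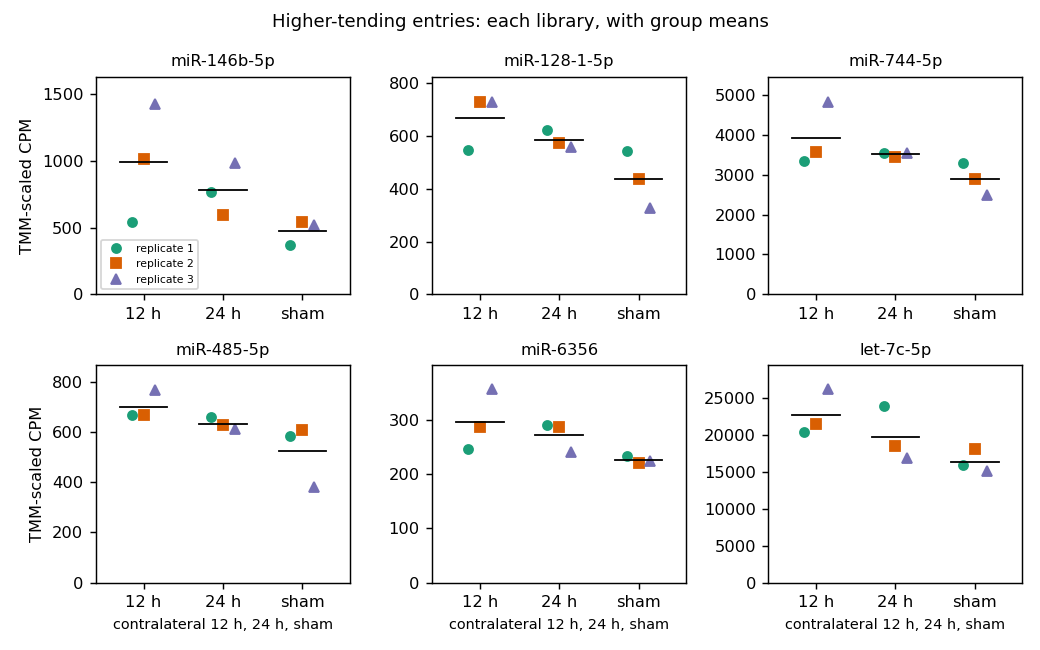
TMM-scaled CPM of 6 entries in contra_12h, contra_24h and sham libraries (3 each), with points marked by replicate number, which is the day of surgery, and bars at group means. None of the 6 was called, and contra_12h replicate 3 is the highest library in miR-146b-5p, miR-744-5p, miR-485-5p, miR-6356 and let-7c-5p.

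Among lower entries outside the miR-183 and miR-200 clusters, those of smallest p were sparse. miR-654-5p, also from the Dlk1-Dio3 region, had 8.56, 5.70 and 4.10 CPM in the contra_12h libraries, 10.4, 11.8 and 5.84 CPM in the contra_24h libraries, and 16.2, 18.3 and 15.2 CPM in the sham libraries. The groups did not overlap, yet the log2 fold change of -1.10 ± 0.29 was not called (SE, edgeR, unadjusted p = 0.00081, adjusted p = 0.24). miR-693-3p, from an intron of Xpo5, the exporter of miRNA precursors, averaged 12.4 ± 3.09 CPM in late contralateral cortex and 22.5 ± 2.14 CPM in sham. Its log2 fold change was -0.86 ± 0.26 (SE, edgeR, adjusted p = 0.57). Early contralateral cortex held 18.2 ± 1.09 CPM of miR-693-3p at 3 h and 10.9 ± 2.82 CPM at 6 h. In the other direction, miR-6959-5p averaged 16.5 ± 6.18 CPM in late contralateral cortex and 8.11 ± 1.99 CPM in sham, with 0.98 ± 0.32 on the log2 scale (SE, edgeR, adjusted p = 0.67).

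The direction of small differences followed the level of the entry and the scaling. Of the 265 abundant entries 211 had a log2 fold change above 0, with a median of 0.16, and of the 1205 entries under 100 CPM 459 did, with a median of -0.11. Scaling by library totals alone gave medians of -0.01 over abundant entries and -0.21 over all entries. TMM factors taken from abundant entries gave 0.02 and -0.19. Differences of this size in any family were therefore read beside these medians.

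Most abundant entries were bounded within a 2-fold difference. The 95% interval of the log2 fold change lay within 1 of 0 for 215 of the 265 abundant entries (81.1%), for 69 of the 79 entries of at least 1000 CPM (87.3%) and for 646 of all 1470 (43.9%). The median standard error was 0.29 over abundant entries and 0.38 over all. These intervals and errors are those of the TMM fit without the replicate block, and no such count was made with the block. Only 5 abundant entries had a log2 fold change beyond 1 in size, and all 5 belong to the miR-183 and miR-200 clusters. Of these, miR-141-3p, miR-429-3p and miR-200b-3p count as abundant only through sham replicate 2, the library that also sets the size of their fold change. Over the other 8 libraries 261 entries averaged at least 100 CPM, and 2 were beyond 1 with sham replicate 2 in the fit. These were miR-182-5p and miR-183-5p, which were at 0.37 and 0.23 without that library. For miR-181a-5p, the most abundant entry, the mean was 116703 ± 13835 CPM in late contralateral cortex and 94478 ± 17289 CPM in sham, which was not called.

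Families of abundant miRNAs showed no called member. All 10 tested let-7 entries, whose family restrains growth and marks differentiated tissue, lay above 0 with a median log2 fold change of 0.28, and 0 of 10 were called. Their median stayed above that of all abundant entries by 0.12 to 0.14 under each scaling. With TMM, 211 of the 265 abundant entries also lay above 0. let-7c-5p and let-7b-5p differ at 1 of 22 bases, so such members could share reads and are not separate observations. let-7c-5p had 20325, 21418 and 26178 CPM in the contra_12h libraries, 23879.5, 18486 and 16937 CPM in the contra_24h libraries, and 15901, 18038 and 15082 CPM in the sham libraries. Only contra_24h replicate 3 fell within the sham range, and all 6 same-day pairs were higher. Its log2 fold change was 0.37 ± 0.17 (SE, edgeR, unadjusted p = 0.0391, adjusted p = 0.998).

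The miR-23/27/24 clusters had a median of 0.27, with 7 of 7 entries above 0, and the miR-181 family a median of 0.24 with 4 of 4. The miR-30 family had a median of 0.06, the miR-29 family -0.05 and the miR-17/92 clusters -0.13. None of these families had a called entry. The 40 tested entries of the Dlk1-Dio3 imprinted cluster, a large block of brain miRNAs, had a median of 0.14 with 29 above 0, close to the abundant entries as a whole.

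Lists tied to stroke also held no call. The 8 activity-regulated entries, miR-132-3p and miR-212-3p among them, had a median of 0.22. miR-132-3p, which responds to CREB in active neurons, averaged 8558 ± 2143 CPM in late contralateral cortex and 7391 ± 986 CPM in sham. The hypoxia marker miR-210-3p averaged 63.1 ± 9.85 CPM in late contralateral cortex and 56.9 ± 10.8 CPM in sham, a log2 fold change of 0.15 ± 0.30. The 8 injury and inflammation entries had a median of 0.23 with 7 above 0, and miR-21a-5p, a marker of reactive and injured tissue, had 0.25 ± 0.23. The miR-34 family, targets of p53, had a median of -0.16 with 2 of 6 above 0.

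Markers of single cell types gave no called difference outside the epithelial and sensory list. In bulk tissue, fewer cells of a type and less RNA per cell cannot be told apart. The 8 neuronal entries had a median log2 fold change of -0.01, with summed levels of 102079 to 164396 CPM in late contralateral cortex and 98562 to 159251 CPM in sham. The 5 tested leukocyte and microglia entries had a median of 0.20 and summed 1434 to 2242 CPM in late contralateral cortex and 1751 to 2021 CPM in sham. miR-223-3p, a neutrophil miRNA, averaged 13.6 ± 1.76 CPM in late contralateral cortex and 11.2 ± 1.68 CPM in sham. Erythrocyte miRNAs, a sign of blood in the tissue, were tested in 3 entries, and their median was -0.0069 on the log2 scale, with 1 above 0 and 2 below. miR-451a averaged 126 ± 39.3 CPM in late contralateral cortex and 126 ± 28.1 CPM in sham. miR-144-3p averaged 18.9 ± 4.30 CPM in late contralateral cortex and 27.6 ± 7.77 CPM in sham (-0.55 ± 0.29, SE, edgeR, adjusted p = 0.998), and miR-144-5p, the other arm of its hairpin, 67.5 ± 18.5 CPM in late contralateral cortex and 56.4 ± 12.5 CPM in sham (0.26 ± 0.32).

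The oligodendrocyte median was 0.02 over 2 tested entries and the vessel median 0.09 over 3. The 2 choroid plexus entries had a median of 0.33. miR-204-5p, the more abundant of them, averaged 3822 ± 861 CPM in late contralateral cortex and 2821 ± 627 CPM in sham (0.44 ± 0.29, SE). The 3 meninges and fibroblast entries had a median of 0.06, and the only tested muscle entry had 0.25. The list medians moved by at most 0.26 between the 3 scalings, furthest in the meninges and fibroblast list. The medians of the oligodendrocyte, vessel, meninges and fibroblast, miR-30, miR-210 and Dlk1-Dio3 lists were above 0 with TMM and below 0 under both other scalings. Without sham replicate 2 the neuronal, miR-29 and miR-17/92 medians were above 0, at 0.14, 0.048 and 0.11, and that of the meninges and fibroblast list was -0.34.

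**Figure D4:**
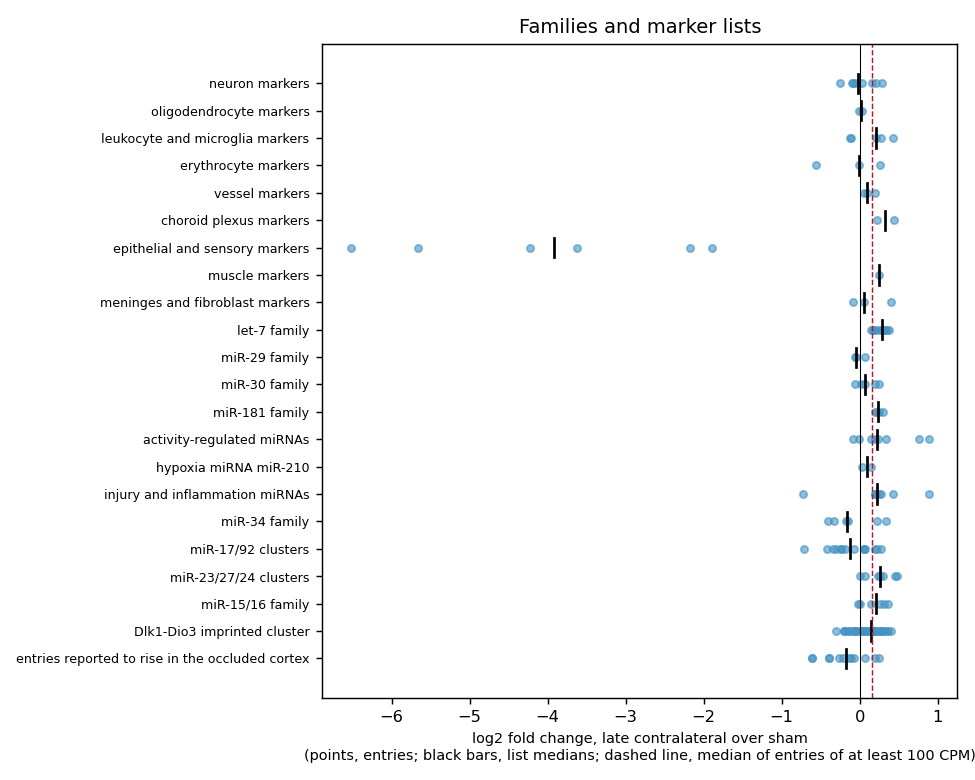
Log2 fold change of late contralateral cortex over sham for the tested entries of 22 lists, with points for entries, black bars for list medians and a dashed line at the median of abundant entries, 0.16. The epithelial and sensory list has a median of -3.92, and the medians of the other lists lie between -0.17 and 0.33.

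The 2 times were then taken one by one, both against the same 3 sham libraries. At 12 h edgeR called 0 of 1470 entries (0%), with 64 at an unadjusted p under 0.05 (4.35%). With the replicate block these were 0 and 100 (6.8%), and DESeq2 gave 0 and 51. At 24 h edgeR called 0 entries (0%), with 33 at an unadjusted p under 0.05 (2.24%). With the replicate block these were 0 and 42 (2.86%), and DESeq2 gave 0 and 24. miR-141-3p had a log2 fold change of -6.72 at 12 h and -6.32 at 24 h, and miR-146b-5p had 1.06 at 12 h and 0.71 at 24 h.

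The direct comparison of 24 h with 12 h, which uses no sham library, called 0 entries (0%) with edgeR, with 46 at an unadjusted p under 0.05 (3.13%). With the replicate block these were 0 and 59 (4.01%), and DESeq2 gave 0 and 32. The smallest p among entries of at least 10 CPM was that of miR-7031-5p, from an intron of Sh2b3, chosen after its values were seen. It had 9.43, 10.9 and 22.2 CPM in the contra_24h libraries and 4.28, 4.75 and 6.83 CPM in the contra_12h libraries. The 2 times did not overlap in it, with an unadjusted p of 0.0019 (edgeR). Its 24 h values overlapped the sham values of 20.3, 15.7 and 14.1 CPM.

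Late contralateral cortex was also set against early contralateral cortex, at 3 and 6 h. edgeR called 0 of 1470 entries (0%), with 56 at an unadjusted p under 0.05 (3.81%), and DESeq2 gave 0 and 44. With the replicate block edgeR called 0, with 71 at an unadjusted p under 0.05 (4.83%). The abundant entry miR-744-5p averaged 3706 ± 555 CPM in late contralateral cortex, against 2577 ± 74.8 CPM at 3 h and 3219 ± 186 CPM at 6 h (0.36 ± 0.15, SE, edgeR, adjusted p = 0.999).

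More entries were called for the day of surgery than for late contralateral cortex against sham. In the block model over 27 libraries the replicate number term was called for 367 of 1470 entries (25%, edgeR). The comparison with sham sets 6 libraries against 3 in a model without the block, so the counts differ in power. Over the 9 libraries compared, the replicate number took a median 42.2% of the sum of squares of log2(CPM + 1) in abundant entries, and the 3 groups took 15.7%. The number took a larger share than the groups in 186 of the 265 entries. All 3 libraries of replicate 1 lay outside the range of the other 6 in 62 of 265 abundant entries (23.4%), 54 of them lower. The same held for replicate 2 in 20 entries (7.55%) and for replicate 3 in 5 (1.89%). The corresponding count for sham outside the 6 late contralateral libraries was 5.

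miR-99b-5p and miR-100-5p, members of the miR-99 family with a shared seed, followed the day most closely of all abundant entries. Their sequences are shown because they share the pattern and the seed.
miR-99b-5p: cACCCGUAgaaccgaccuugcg
miR-100-5p: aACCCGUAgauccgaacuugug
miR-99b-5p had 1675, 4266 and 3521 CPM in contra_12h replicates 1, 2 and 3, 1745, 4063 and 3099 CPM in contra_24h, and 1927, 3629 and 3278 CPM in sham. In each group replicate 1 was the low library. The replicate number took 97.0% of the sum of squares of miR-99b-5p and the groups 0.293%. The neuronal miR-124-3p had 3382, 7204 and 7997 CPM in the contra_12h libraries, 4092, 7261 and 6729 CPM in the contra_24h libraries, and 3429, 6073 and 5487 CPM in the sham libraries. The first library was again the low one in each group, and the groups overlapped. miR-138-1-3p ran the other way, with replicate 1 at 248, 238 and 242 CPM in contra_12h, contra_24h and sham, above the other 6 libraries. What differed between the days was not tested.

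**Figure D5:**
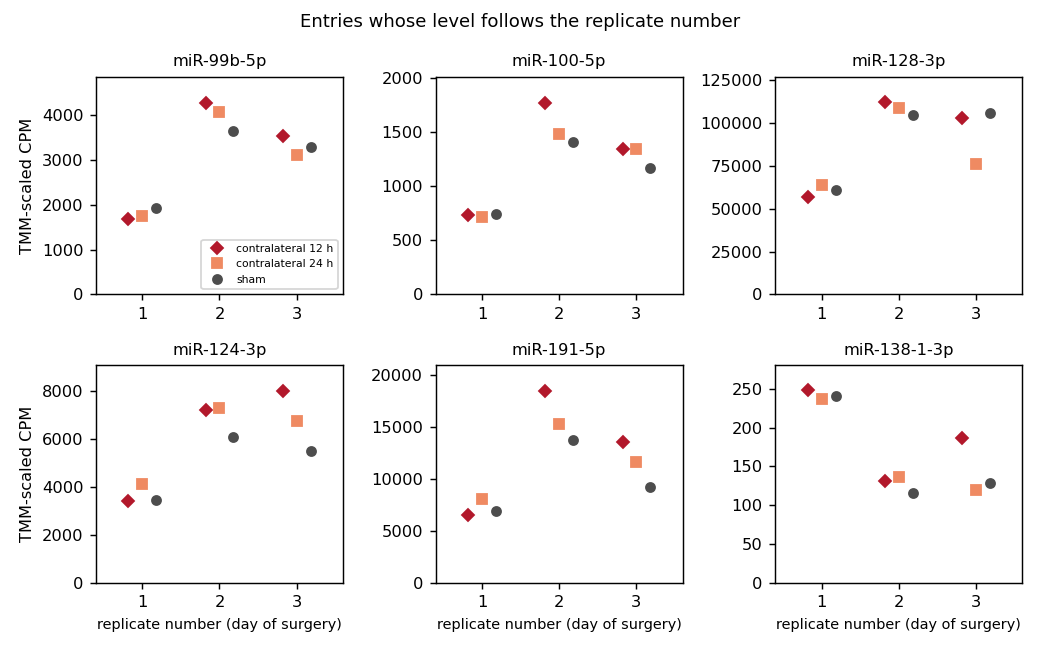
TMM-scaled CPM of 6 abundant entries by replicate number, which is the day of surgery, with contra_12h, contra_24h and sham libraries marked from left to right within each day. Replicate 1 is below replicates 2 and 3 in miR-99b-5p, miR-100-5p, miR-128-3p, miR-124-3p and miR-191-5p and above them in miR-138-1-3p, in contralateral and sham libraries alike.

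The 6 late contralateral libraries also varied among themselves. The median coefficient of variation over the 265 entries with a late mean of at least 100 CPM was 22.1%, with 113 entries under 20% and 16 over 50%. miR-340-3p was the steadiest, at 158 ± 10.0 CPM in late contralateral cortex and 129.9 ± 36.7 CPM in sham. miR-21b, listed beside the abundant miR-21a-5p, was the most variable, at 46.7 to 578 CPM in late contralateral cortex and 81.8 to 391 CPM in sham, and replicate 1 was its highest library in all 3 groups. miR-10b-5p, a miRNA encoded in a HOX cluster, ranged from 39.6 to 937 CPM in late contralateral cortex and from 119.7 to 818 CPM in sham.

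Entries that earlier work on these data found to rise in the occluded cortex had no call here. That list was chosen from comparisons that used the same contralateral libraries, so its values are a description. Its 12 entries had a median log2 fold change of -0.17, with 3 above 0, and the median was -0.37 with library totals, -0.34 with TMM factors from abundant entries and -0.44 without sham replicate 2. They summed 198 to 349 CPM in late contralateral cortex and 219 to 321 CPM in sham. miR-701-5p had 17.7 ± 7.93 CPM in late contralateral cortex and 18.1 ± 4.72 CPM in sham, while the ipsilateral cortex averaged 1548 ± 1835 CPM at 12 h and 6261 ± 5631 CPM at 24 h (SD, n = 3 each). The late contralateral and sham libraries overlapped in each of the 12 entries.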

How the data were processed

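Small RNA was sequenced from mouse cortex with the TruSeq small RNA protocol, inserts of 15 to 35 bp and 69 bp single-end MiSeq reads, per the labels' protocols. The authors deposited raw counts of 1842 mature miRNA entries in 27 libraries. The submitters' processing notes name Novoalign and edgeR with no role or version. The genome build and miRNA annotation were not given in the sources used here.

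The counts were tested with edgeR 4.0.16 (R 4.3.3): filterByExpr by group kept 1470 entries, and the 372 removed held 0.115% of the counts of the 9 libraries. TMM factors, robust dispersions and the quasi-likelihood F test were used, with 1 mean per group over all 27 libraries (18 residual degrees of freedom) and Benjamini-Hochberg adjustment over 1470 entries. Alternatives were a block on replicate number, other scalings and filters, the 9 libraries alone, DESeq2 1.42.0 and leaving out each library. The steps were tested on simulated counts with no day-of-surgery effect and no outlying library, so that test does not cover either. Single values were compared with exact permutation tests, and intervals of shares are 95% Wilson intervals.

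The replicate number marks the day of surgery, per the series' design text, and so pairs libraries across groups. Departures from the group means had a mean correlation of 0.41 over 108 same-number pairs and -0.20 over 216 others. Replicates of the groups compared differed by more than counting noise, with a chi-square of at least 16.9 per degree of freedom.

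Named entries are called entries, the 12 of smallest p per direction of at least 10 CPM, those of at least 100 CPM whose libraries do not overlap, the 10 most abundant, and members of 22 lists. The members, lists and rules were chosen with earlier results of these data known. miR-219a-5p, miR-486a-5p, miR-486b-5p, miR-126a-5p, miR-199a-3p and let-7k were not analysed here. Entries named by the day of surgery or by their spread were chosen after their values were seen. Depth, 866376 to 1435081 counts per library compared, puts an entry of 10 CPM at about 10 counts.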

Additional observations from a re-analysis of the deposited data

Results flagged for a closer look

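In a group of 6 libraries, a value is given here where its gap to the nearest other, as a share of the group's range, exceeds Dixon's 95% critical value, which chance alone does in about 1 of 20 groups. Of 55 entries looked at over the 6 late contralateral libraries, 4 met this. In contra_12h replicate 3, miR-744-5p was at 4826 CPM (next 3555 CPM), miR-183-5p at 286 CPM (next 219 CPM) and miR-485-5p at 767 CPM (next 667 CPM). In contra_24h replicate 3, miR-7031-5p was at 22.2 CPM (next 10.9 CPM). contra_12h replicate 3 had the lowest TMM factor of the 9 libraries, 0.765, and its part in these values was not tested.

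One library in no comparison, ipsi_6h replicate 3, held 20875 CPM of its total of miR-182-5p, against 157 and 91.2 CPM in sham replicates 1 and 3. It shares this with sham replicate 2, at 18878 CPM. It entered the fit through the filter, the scaling and the shared estimate of the spread.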

How the results depend on the processing

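The comparison with sham called 1 entry, and the same count was found with library totals, with TMM factors from abundant entries, with entries of at least 10 CPM, with a non-robust fit and with the 6 late libraries as 1 group. It was 0 without the filter, with the replicate block, on the 9 libraries alone, with both of these and with DESeq2. Leaving out single libraries of the groups compared gave 0 to 5 calls: 0 without sham replicate 2, contra_12h replicate 2, contra_24h replicate 2 or contra_24h replicate 3, 5 without sham replicate 1 and 4 without sham replicate 3. In both of these last fits every call belonged to the miR-183 and miR-200 clusters. Without contra_12h replicate 1 there were 2 calls, miR-141-3p and, outside these clusters, miR-146a-3p. Added after seeing the data, a fit without ipsi_6h replicate 3 called 4, and fits without it and sham replicate 2 called 0, also with the replicate block. The other comparisons gave 0 calls in the main analysis and 0 to 1 on leaving out a library. The call there was miR-141-3p against sham, without sham replicate 1 or ipsi_6h replicate 3. Without contra_12h replicate 1 the call was miR-146a-3p, which had 0 counts in the other contra_12h libraries. Leaving out each library in turn gave log2 fold changes of -6.27 to 0.37 for miR-182-5p, -4.22 to 0.23 for miR-429-3p, -2.39 to 0.23 for miR-183-5p and -2.67 to 0.024 for miR-200b-3p, with the highest value in each case without sham replicate 2. Without ipsi_6h replicate 3 as well they were 0.37, 0.23, 0.22 and 0.021, and with the replicate block in addition 0.44, 0.19, 0.32 and 0.025. miR-141-3p ranged from -7.13 to -1.75. Without sham replicate 2 and ipsi_6h replicate 3 it was at -1.74, and with the replicate block in addition at -1.69. Without sham replicate 2 miR-200a-3p was at -0.26. Over 167 entries and all settings, 3614 other values against sham kept their side of the threshold, but 301 of them, in 75 entries that were within 1 SE of 0 in the main analysis, had the other sign. In miR-182-5p, miR-429-3p and miR-200a-3p 8 values passed the threshold, and in miR-141-3p 10 no longer did, beside DESeq2, which gave it no adjusted p. The replicate block ended the single call and changed no other. Depth limits entries under 100 CPM, and 3 sham libraries limit all of them.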
